A study of Mus musculus with 12 samples.

Results

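The miRNAs described here are 5 mature names, mmu-miR-143, mmu-miR-145, mmu-miR-199a-3p, mmu-miR-199a-5p and mmu-miR-214, taken by name from the 548 mature miRNA names counted over 12 mouse small-RNA libraries. All libraries came from C57BL/6 mice, with 1 library per population. Bone marrow gave 4 of them. LSK was sorted as Lin- Sca+ cKit+. MPP carried CD135 and CD106 on top of those marks, while LMPP carried CD135 and lacked CD106. ProB was B220+ IgM- CD43hi. The thymus gave 4 CD4- CD8- stages with CD90. DN1 was CD3- CD44+ CD25-, DN2 was CD44+ CD25+, DN3 was CD44- CD25+ and DN4 was CD3lo CD44- CD25-. It also gave the CD4+ CD8+ CD3lo CD90+ stage (DP) and both CD3hi CD90+ CD24lo single-positive populations, CD4SP (CD4+ CD8-) and CD8SP (CD4- CD8+). MEF, embryonic fibroblasts from E14.5, formed the 1 library outside the blood lineages.

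A miRNA gene is transcribed into a longer RNA that folds into a hairpin. The hairpin is cut into a short duplex whose strands are named for their arm, 5p or 3p. One strand is usually kept by an Argonaute protein and pairs with target mRNAs through its seed. miR-143 and miR-145 lie side by side and are known from smooth muscle and fibroblasts. miR-199a and miR-214 are known from mesenchyme and from the developing skeleton in mice. All of them are widely read as markers of mesenchymal or stromal cells.

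The miR-199a and miR-214 sequences are shown because arm identity and sequence sharing decide how their reads can be counted. They are RefSeq sequences on GRCm38.p6, written 5′ to 3′ with the seed (bases 2 to 8) in capitals.
miR-199a-5p: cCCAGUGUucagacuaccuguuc
miR-199a-3p: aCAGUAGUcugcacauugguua
miR-199b-3p: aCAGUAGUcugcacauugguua
miR-214-3p: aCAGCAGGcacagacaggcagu
miR-214-5p: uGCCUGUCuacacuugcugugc
The miR-199a-3p and miR-199b-3p lines are identical over all 22 bases. Every read of miR-199a-3p was therefore also listed for miR-199b, and each such read was split equally between them. In the tables, miR-214 is the 3p arm, and miR-214* and miR-199b* are the 5p arms of their hairpins. Among 1679 mature names in the RefSeq table, the seed of miR-199a-5p was found in 1 name, its own. That of miR-214-3p was found in 2, the other being miR-761. The 5p arm of miR-199b had no entry there, so the count of 1 does not cover it.

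Each arm of miR-199a is encoded at 2 loci. One copy lies in Mir199a-2 at chr1:162217814-162217923 on the plus strand, where the 5p arm is at chr1:162217844-162217866 and the 3p arm at chr1:162217883-162217904. Mir214 lies 5444 bases further along the same strand, at chr1:162223368-162223477. Both hairpins overlap an exon of Dnm3os, a noncoding gene antisense to Dnm3, and an intron of Dnm3 on the opposite strand. The other copy, Mir199a-1, lies at chr9:21496495-21496564 on the minus strand, in an intron of Dnm2 and antisense to it. Mir199b lies at chr2:32318460-32318569 on the plus strand, in an intron of Dnm1 and antisense to it. Mir143 and Mir145a lie on the minus strand of chromosome 18 with 1301 bases between them. The noncoding gene Carmn lies on the same strand, 366 bases from Mir143.

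Totals ran from 63386 mature reads in DN4 to 4572864 in DN3, and MEF had 308688. Levels are given as RPM, reads per 1000000 mature reads of the library. Intervals are 95% and cover counting error only, since 1 library per population leaves no replicate check. A level of 0 reads allows up to 3 counts, which is 47.3 RPM in DN4, 9.72 RPM in MEF, 5.73 RPM in DP and at most 3.06 RPM in the other libraries. A miRNA is called higher or lower where the whole interval of the ratio lies beyond 2-fold and the higher library has at least 100 RPM and 10 reads. Reads began mostly at base 3 of the mature miRNA in 8 libraries, at base 2 in DN4, DP and MEF and at base 1 in DN3. The pan-blood miRNAs (miR-142-3p, miR-142-5p, miR-223 and miR-150) summed to 194 RPM in MEF and to between 15374 and 126100 RPM in the blood libraries, so these markers followed the labels.

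The 5 miRNAs together made up 2.20% of mature reads in MEF (2.14 to 2.25%), or 21959 RPM. LMPP came next at 600 RPM, followed by LSK at 145 RPM, MPP at 119 RPM, ProB at 73.0 RPM and DN1 at 63.4 RPM. The remaining thymic libraries lay between 6.34 RPM in CD4SP and 18.9 RPM in DN2. The series of levels was thus headed by MEF, with LMPP the highest blood library and LSK the next. In bulk samples, fewer cells of a type and less RNA per cell cannot be told apart.

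**Figure D1:**
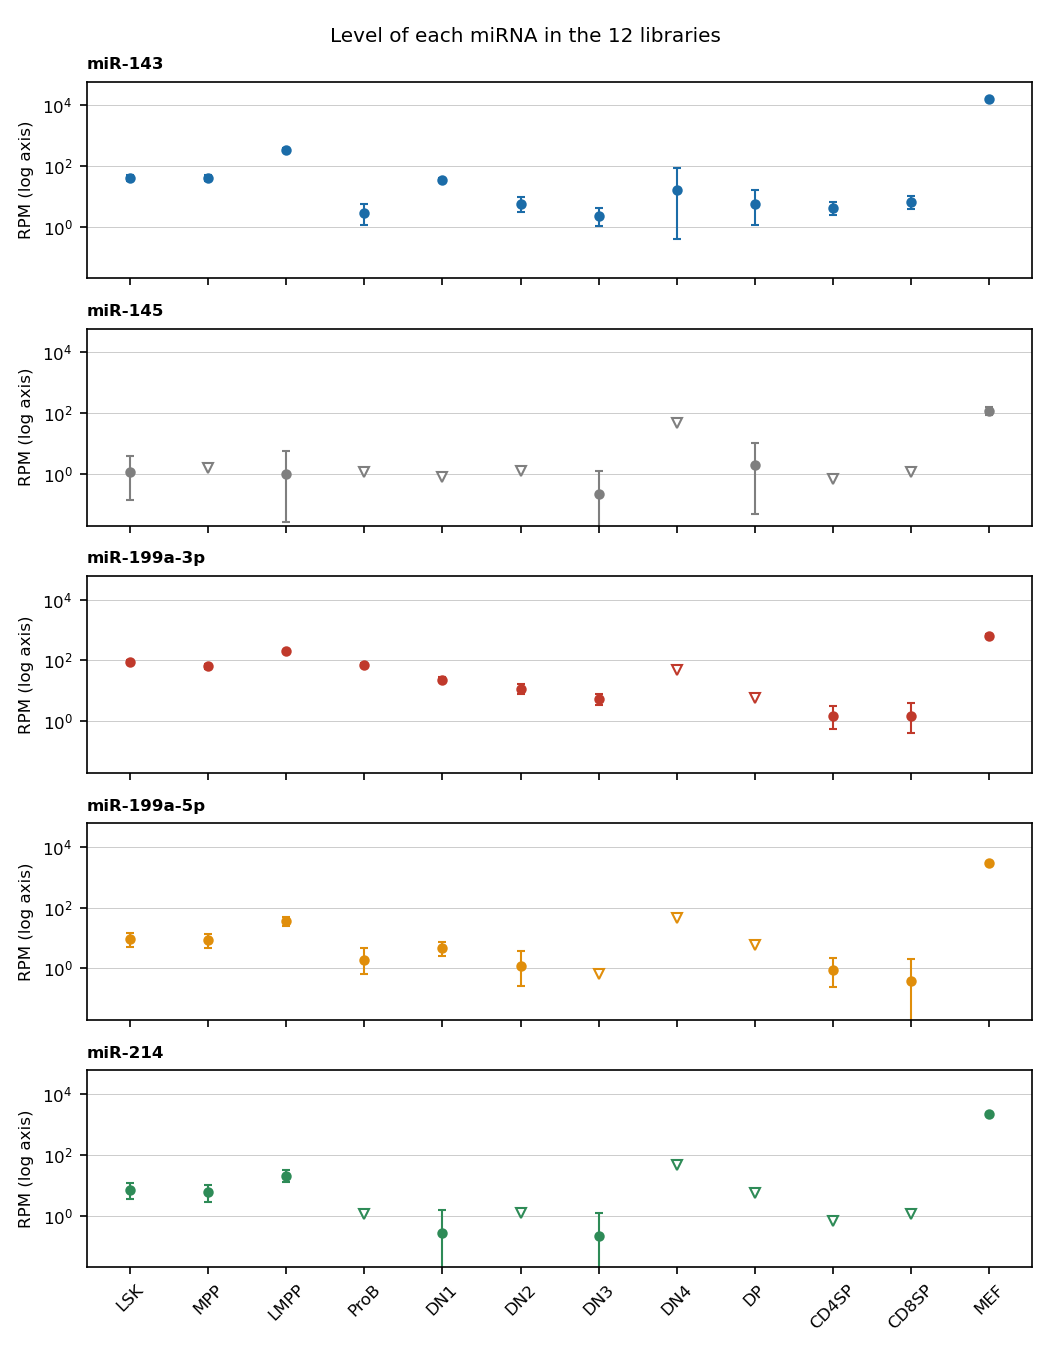
RPM of each miRNA in each library on a log axis, with exact 95% Poisson intervals, cut at the lower axis limit, and with open triangles at the level of 3 counts where a library had 0 reads. MEF is the highest library in all 5 panels, and LMPP is the highest blood library for miR-143 at 344 RPM, miR-199a-3p at 198 RPM, miR-199a-5p at 36.8 RPM and miR-214 at 20.4 RPM.

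miR-143 was the most abundant of the 5 in MEF. It stood at 15929 RPM in MEF from 4917 reads, rank 6 of the 385 names with reads there. In marrow it stood at 40.9 RPM in LSK, 40.5 RPM in MPP, 344 RPM in LMPP and 2.74 RPM in ProB. In the thymus it stood at 35.2 RPM in DN1, 5.81 RPM in DN2, 2.19 RPM in DN3, 15.8 RPM in DN4 from 1 read, 5.73 RPM in DP from 3 reads, 4.0 RPM in CD4SP and 6.39 RPM in CD8SP. LMPP stood apart from the other blood libraries. LSK, MPP and DN1 lay close together, and each interval of a neighbouring ratio held 1 from LSK downwards. That order passes through DN4 with its 1 read, so it does not make these levels equal. The DN1 interval (29.4 to 41.7 RPM) lay above those of DN2 (3.18 to 9.75 RPM) and ProB (1.10 to 5.64 RPM).

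miR-145, the cluster partner of miR-143, was rare in every library. It had 37 reads in MEF, which is 119.9 RPM and rank 170 of 385. The blood libraries held 2 reads in LSK, 1 each in LMPP, DN3 and DP, and 0 in the other 7. In MEF it made up 0.747% of miR-143 plus miR-145 (0.526 to 1.03%), and in LMPP 0.296% (0.00749 to 1.64%). The passenger name miR-145* had 93 reads in MEF, which is 301 RPM, 2 reads in LMPP and 1 in DN1. It was thus the more abundant strand in MEF, with 71.5% of miR-145 plus miR-145* (63.0 to 79.1%).

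miR-199a-3p is the strand whose reads cannot be assigned to miR-199a or miR-199b. With shared reads split, it stood at 656 RPM in MEF. In marrow it stood at 87.5 RPM in LSK, 64.7 RPM in MPP, 198 RPM in LMPP and 68.3 RPM in ProB. In the thymus it stood at 23.4 RPM in DN1, 11.8 RPM in DN2, 5.47 RPM in DN3, 1.45 RPM in CD4SP and 1.5 RPM in CD8SP, with 0 reads in DN4 and DP. ProB and MPP did not differ beyond the interval, at a ratio of 1.06 (0.833 to 1.34). Along DN1, DN2 and DN3 each level was lower than the one before, with ratios of 1.98 (1.29 to 3.14) and 2.16 (1.22 to 3.86) that excluded 1 without reaching the call.

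miR-199a-5p, the other arm of the same hairpins, stood at 2984 RPM in MEF from 921 reads. LMPP had 36 reads, which is 36.8 RPM. LSK had 8.97 RPM, MPP 8.41 RPM, DN1 4.53 RPM and ProB 1.96 RPM. DN2 held 3 reads, CD4SP 4 and CD8SP 1, and DN3, DN4 and DP held 0. From LSK downwards the intervals of neighbouring ratios held 1 at each step. Libraries further apart in that order did differ, as the LSK interval (5.13 to 14.6 RPM) lay above that of ProB (0.635 to 4.57 RPM).

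miR-214, whose hairpin lies in the same noncoding gene as Mir199a-2, stood at 2271 RPM in MEF from 701 reads. Among blood libraries LMPP had 20 reads (20.4 RPM), LSK 12 (6.73 RPM) and MPP 11 (5.78 RPM). DN1 and DN3 had 1 read each, and the other 6 had 0. LSK and MPP did not differ beyond the interval, at a ratio of 1.16 (0.470 to 2.91), while MPP stood 21.7-fold above DN1 (3.16 to 935). miR-214*, the 5p strand printed above, was listed in MEF alone, with 62 reads (201 RPM).

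The first question the design allows is how fibroblasts differ from the blood populations. MEF was set against each of the 11 blood libraries. All 5 names were called higher in MEF than in each of 10 of them, and 4 of 5 against DN4. The comparison with LMPP is the closest, and there 84.2% of the 228 tested miRNAs were called, and 43.9% called higher. Against LSK 81.4% were called (45.9% higher), against MPP 82% (46.4%) and against ProB 85.9% (51.8%). Against DN1 83.5% were called (50.9% higher), against DN2 83.5% (51.4%) and against DN3 86.3% (45.5%). Against CD4SP 85.6% were called (53.2% higher), against CD8SP 87.1% (52%), against DN4 75.9% (35.5%) and against DP 74% (51%). With so many called, the count of 5 is read against those shares, and the sizes of the ratios are given next.

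Against LMPP, miR-214 was 111-fold higher in MEF (71.4 to 183) and miR-199a-5p 81.2-fold (58.2 to 117). miR-143 was 46.3-fold higher (41.4 to 51.8), and 28.2-fold (26.1 to 30.6) when its reads in the hairpin tables, described further on, were added. miR-145 was 117-fold higher, but its interval ran from 19.8 to 4760 because LMPP held 1 read, and its call was lost with TMM factors, where MEF falls under 100 RPM, and without sequences seen once. miR-199a-3p differed least, at 3.31-fold (2.71 to 4.05), and its call was lost when libraries were thinned to 63386 reads. Median-of-ratios factors moved every ratio of this comparison by 1.00 on the log2 scale. The median log2 ratio with 10 RPM added was 5.49 over the 5 names and 0.29 over all 228 tested.

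DN4 and DP share the base at which MEF reads begin, so they are the blood libraries matched to MEF on that measure. Against DP, miR-143 was 2782-fold higher (951 to 13493) on 3 reads in DP. miR-145 was 62.8-fold higher (10.6 to 2546) on 1 read. Against the level of 3 counts in DP, miR-199a-5p was at least 521-fold higher, miR-214 at least 397-fold and miR-199a-3p at least 115-fold. The exact lower limits of these ratios, which allow for the counting error of both libraries, were 423, 322 and 92.3. Against DN4 the bounds were at least 63.0-fold, 48.0-fold and 13.9-fold in the same order. The exact lower limits were 51.2, 38.9 and 11.2. miR-145 had 37 reads in MEF against 0, and the exact lower limit of its ratio, 1.96, missed the rule. TMM factors moved every ratio against DP by -1.31 on the log2 scale, and median-of-ratios factors moved every ratio against DN4 by 1.70.

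**Figure D2:**
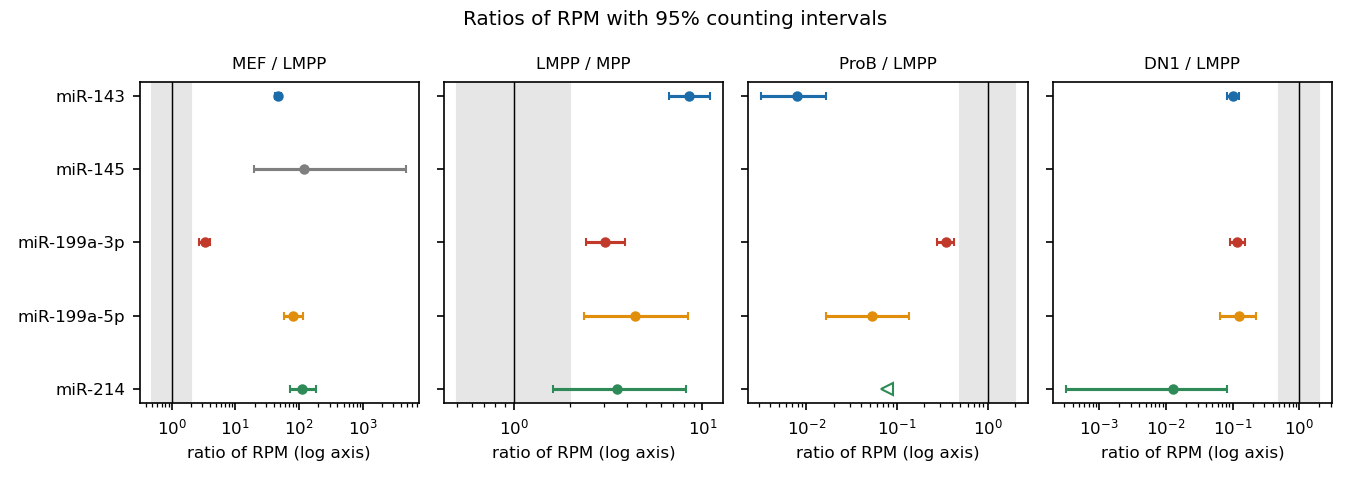
Ratios of RPM on log axes with exact 95% intervals for 4 pairs of libraries, with open triangles at the limit of the interval where 1 library had 0 reads, and names with 3 or fewer reads in the pair left out. The grey band spans 2-fold either way, and the MEF over LMPP ratio of miR-199a-3p, 3.31, is the smallest of the 5.

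The second question is how the names move along the sorted blood stages. From LSK to MPP all 5 lay under 100 RPM, so 0 of 5 could be called (2.14% of the 140 tested miRNAs were), and nothing is read from that count. The MPP over LSK ratio of miR-199a-3p was 0.739 (0.579 to 0.942), and that of miR-143 was 0.989 (0.709 to 1.38). From MPP to LMPP miR-143 was 8.50-fold higher (6.62 to 11.03) and miR-199a-3p 3.06-fold higher (2.43 to 3.87). That is 2 of 5 called, beside 14.8% of 155 tested miRNAs called and 13.5% called higher. miR-199a-5p had a ratio of 4.37 (2.36 to 8.43) and miR-214 one of 3.53 (1.61 to 8.16), and both lay under 100 RPM. With libraries thinned to 63386 reads 0 of 5 were called in this step.

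From LMPP to ProB the same 2 names were called lower, where 38.2% of 157 tested miRNAs were called and 30.6% called lower. miR-143 was 126-fold lower (60.3 to 315). miR-199a-3p was 2.90-fold lower (2.35 to 3.58), and with TMM or median-of-ratios factors its fold was 1.79 or 2.18 and the call was lost. miR-199a-5p had 5 reads in ProB against 36 in LMPP and miR-214 had 0 against 20, and both lay under the level the rule asks for. TMM factors moved every ratio of this step by 0.70 on the log2 scale, toward smaller falls, and miR-143 stayed called. In ProB miR-199a-3p stood at 68.3 RPM and miR-143 at 2.74 RPM.

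From LMPP to DN1 miR-143 was 9.79-fold lower (7.98 to 12.1) and miR-199a-3p 8.45-fold lower (6.54 to 11). TMM factors moved both ratios by 0.61 on the log2 scale, and both stayed called. These were again 2 of 5 called, where 47.5% of 158 tested miRNAs were called and 38% called lower. The fold of miR-199a-5p was 8.12 (4.44 to 15.4), also downward, on 17 reads in DN1. From DN1 to DN2 miR-143 had a fold of 6.05 (3.48 to 11.4) downward, but both libraries lay under 100 RPM.

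In the later stages 0 of 5 were called in any step. The shares of tested miRNAs called were 38.1% from DN1 to DN2, 46% from DN2 to DN3, 64.7% from DN3 to DN4, 53.2% from DN4 to DP, 78.9% from DP to CD4SP, 78.3% from DP to CD8SP and 15.2% from CD4SP to CD8SP. All members lay under 100 RPM there, so none could be called, and nothing is read from those counts. Some intervals excluded 1, among them the downward folds of miR-143 and miR-199a-3p from DN1 to DN2 given above, and from DN2 to DN3 that of miR-143 at 2.66 (1.10 to 6.68). In DN4 1 read is worth 15.8 RPM.

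Markers of some other cell types also stood high in LMPP, while others were highest elsewhere. The neural miRNAs (miR-124, miR-9 and miR-128) summed to 2626 RPM in LMPP and 37879 RPM in DN4. Only 2 of these 3 had reads in LMPP and 1 in DN4, so the DN4 sum is the level of 1 name. The epithelial list (miR-200a, miR-200b, miR-200c, miR-141, miR-429 and miR-205) summed to 345 RPM in LMPP and 774 RPM in DN1. The liver miRNA miR-122 stood at 4313 RPM in LMPP, 1163 RPM in LSK, 1234 RPM in MPP and at most 28.6 RPM in the other libraries. The erythroid miRNAs (3 of 3 listed, miR-451, miR-486 and miR-144) summed to 4655 RPM in LMPP, against 4652 RPM in DN3 and 1661 RPM or less in the other blood libraries. The 4 muscle miRNAs summed to 112 RPM in LMPP and to at most 21 RPM in the other blood libraries. Of these miR-1 was at 62.8 RPM in LMPP and at 0 in MEF, where miR-206 was at 113 RPM. The endothelial pair miR-126-3p and miR-126-5p summed to 23440 RPM in LMPP, 21448 RPM in MPP and 11199 RPM in LSK. The part of any of these in the LMPP levels of miR-143 and miR-199a was not tested.

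The arms of miR-199a were used in opposite proportion in MEF and in blood. miR-199a-3p made up 18.0% of both miR-199a arms in MEF (15.8 to 20.4%), when its shared reads were split. It made up 90.7% in LSK (85.3 to 94.6%), 88.5% in MPP (82.0 to 93.3%), 84.3% in LMPP (79.0 to 88.8%), 97.2% in ProB (93.6 to 99.1%) and 83.8% in DN1 (75.3 to 90.3%). The MEF interval did not overlap that of any of these 5 libraries. A share within a library does not depend on how libraries are scaled. These 5 libraries began reads mostly at base 3, however, and MEF at base 2. DN4 and DP, which share base 2 with MEF, had 0 reads of either arm. Whether the difference follows the cells or the libraries was not tested.

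Because 3p reads cannot be assigned to miR-199a or miR-199b, the arms of all 3 hairpins were also added without splitting. The 3p arms then made up 27.2% of 1490 reads in MEF (24.9 to 29.5%) and 86.8% of 447 reads in LMPP (83.3 to 89.8%). They made up 93.1% in LSK, 91.8% in MPP, 97.5% in ProB, 90.3% in DN1, 93.4% in DN2 and 96.2% in DN3. The inversion therefore did not rest on how shared reads were split. The 5p arms are listed under separate names, and 2 of 922 miR-199a-5p reads in MEF were shared with other names. Not every read named miR-199b* matched the Mir199b hairpin over its first 16 bases. In MEF 149 of 164 matched, but 11 of 23 in LMPP and 2 of 7 in LSK. The LMPP and LSK shares that follow count reads by name and are uncertain for that reason. miR-199a-5p made up 84.9% of miR-199a-5p plus miR-199b* in MEF (82.6 to 87.0%), 61.0% in LMPP (47.4 to 73.5%), 69.6% in LSK (47.1 to 86.8%) and 89.5% in DN1 (66.9 to 98.7%).

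**Figure D3:**
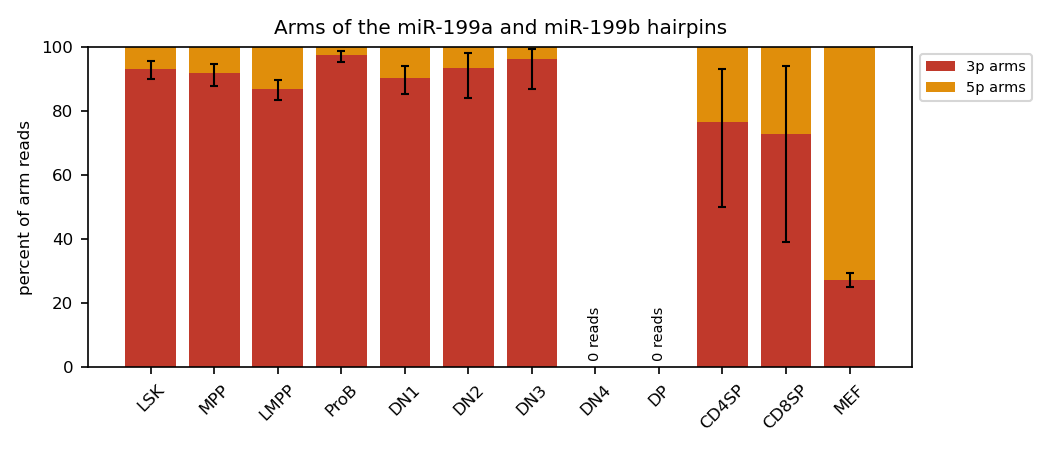
Percent of reads on the 3p and 5p arms of the Mir199a and Mir199b hairpins in each library, shared 3p reads counted once, with exact 95% binomial intervals on the 3p share. The 3p share was 27.2% in MEF and between 72.7% and 97.5% in the 9 blood libraries with at least 10 reads, while DN4 and DP had 0 reads.

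The share of miR-214 beside both arms of miR-199a was higher in MEF than in the progenitors. miR-214 made up 38.4% of miR-214 plus both miR-199a arms in MEF (36.2 to 40.7%). That share was 8% in LMPP (4.96 to 12.1%), 7.33% in MPP (3.72 to 12.7%) and 6.52% in LSK (3.42 to 11.1%). ProB had 0 of 179.5 such reads, which allows a share of up to 2.03%. Set against miR-199a-5p alone, there were 701 reads to 921 in MEF and 20 to 36 in LMPP. LSK had 12 to 16 and MPP 11 to 16, proportions close to that of MEF. The higher share in MEF therefore depends on counting miR-199a-3p beside miR-214.

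The read forms of miR-143 differed between tables, which bears on its level. Reads were also listed in a second table under hairpin names, used here for the 11 libraries other than CD4SP. Of all miR-143 reads, 50.7% were in the hairpin table in LMPP (46.8 to 54.5%), 50.6% in DN1, 43.8% in LSK and 39.8% in MPP. In MEF it was 10.4% (9.64 to 11.3%). The share over all miRNAs was between 6.28% and 15.4% in every library.

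The 3′ ends show which reads these were. In LMPP 304 of 647 placed miR-143 reads, 47.0% (43.1 to 50.9%), ended in up to 3 added bases, all T, that the hairpin does not hold there. In MEF it was 2106 of 5230 reads, 40.3% (38.9 to 41.6%). DN1 had 46.7% (40.5 to 53.0%), LSK 42.2% (33.5 to 51.2%) and MPP 34.1% (25.8 to 43.2%). Over all miRNAs pooled, the share ending in added T was 9.34% in LMPP and 2.76% in MEF. miR-143 stood far above that pooled share in both, but it was not the only one. Of hairpins with at least 100 placed reads, Mir143 included, 16 of 150 lay at or above 30% in LMPP. The count was 20 of 153 in MPP, 17 of 155 in LSK and 3 of 112 in MEF.

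The tables treated these ends differently. Of the added-T reads of miR-143, 99.0% were in the hairpin table in LMPP and 98.1% in LSK, against 12.01% in MEF. Of its other reads, 10.2% were in the hairpin table in LMPP and 8.39% in MEF. The hairpin table held 110 of 121 added-T reads in DN1, but 4 of 8 in DN2 and 3 of 7 in CD8SP. In LMPP the mature table thus held 337 miR-143 reads, with 346 more under hairpin names, against 4917 and 573 in MEF.

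With both tables added, miR-143 stood at 16667 RPM in MEF, 590 RPM in LMPP, 65.6 RPM in LSK, 60.0 RPM in MPP and 64.6 RPM in DN1. It stood at 6.15 RPM in ProB, 7.26 RPM in DN2, 2.41 RPM in DN3, 26.7 RPM in DN4, 6.83 RPM in DP and 7.16 RPM in CD8SP. The MEF over LMPP ratio was then 28.2 (26.1 to 30.6) in place of 46.3. From MPP to LMPP it was 9.83-fold higher (8.13 to 11.97), from LMPP to ProB 95.9-fold lower (60.2 to 163) and from LMPP to DN1 9.13-fold lower (7.91 to 10.6). The last 3 of these moved by less than 1.5 times. MEF stayed first and LMPP second, while below them DN1 moved above MPP and DN2 above CD8SP, with overlapping intervals. With tables added, 82.4% of tested miRNAs were called between MEF and LMPP, 21.9% from MPP to LMPP, 44.7% from LMPP to ProB and 46.9% from LMPP to DN1.

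**Figure D4:**
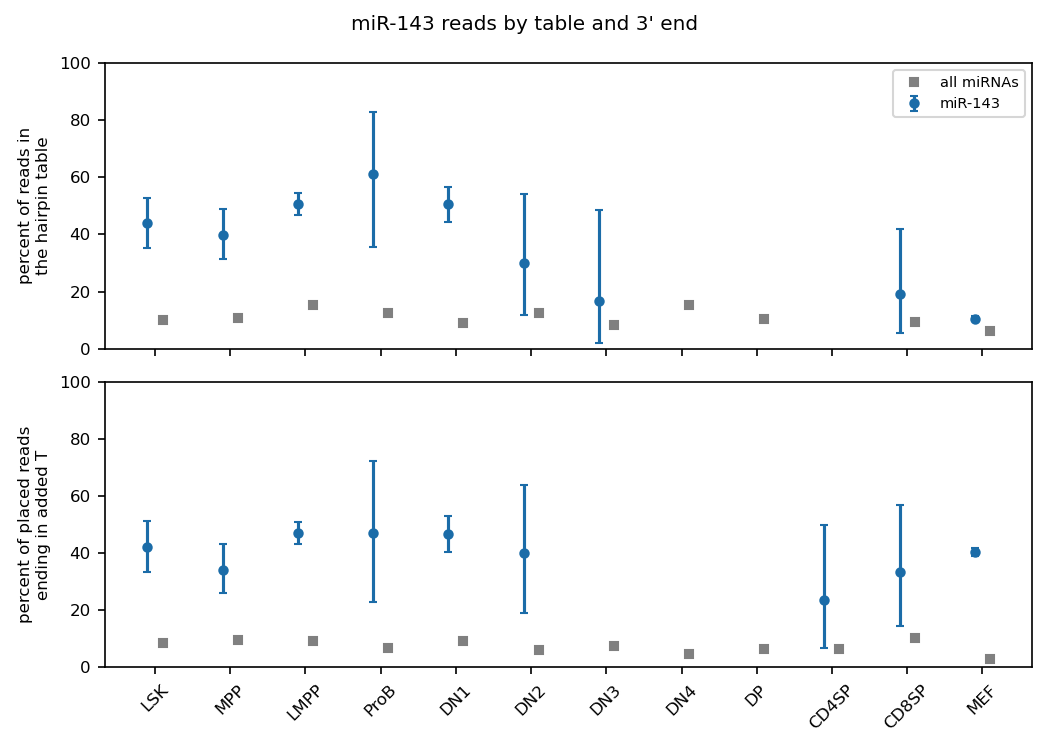
Percent of miR-143 reads listed in the hairpin table (top) and percent of placed reads ending in added T (bottom) by library, with exact 95% binomial intervals, beside all miRNAs as grey squares. miR-143 ended in added T in 47.0% of reads in LMPP and 40.3% in MEF, while 50.7% and 10.4% of its reads were in the hairpin table.

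The other names showed other ends. miR-214 ended in added A in 31.0% of 725 placed reads in MEF (27.7 to 34.5%) and in 9 of 20 in LMPP, 45% (23.1 to 68.5%), against 5.70% and 7.70% over all miRNAs. miR-214* ended in added T in 59.7% of 154 placed reads in MEF (51.5 to 67.6%), and 97.8% of those reads were in the hairpin table. The 5p strand of miR-214 was thus mostly missing from its mature count of 62. miR-199a-5p was plain, with 91.8% of 862 placed reads in MEF ending in hairpin sequence.

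The 5′ ends also differed, which sets the seed. Over all mature reads, between 96.3% and 98.9% began at the usual base of their library. For miR-143 that share was 99.7% in MEF and 99.2% in LMPP, and for miR-199a-5p it was 99.8% in MEF and 100% of 35 reads in LMPP. The 3p strand shared by miR-199a and miR-199b began there in 82.5% of 416 reads in MEF (78.4 to 86.0%), with 11.1% beginning 1 base earlier and 6.25% 1 base later. In LMPP it began there in 69.7% of 366 reads (64.7 to 74.3%), with 16.7% earlier and 13.7% later, and the MEF and LMPP intervals did not overlap. The intervals of LSK, MPP, ProB and CD4SP also lay below that of MEF. Those of DN1, at 75.9% (68.7 to 82.2%), DN2 and DN3 overlapped it. MEF and LMPP differ in their usual base, and whether the difference follows the cells or the libraries was not tested.

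miR-214 began 1 base earlier in 25.2% of reads in MEF (22.1 to 28.6%), in 12 of 20 in LMPP, 7 of 12 in LSK and 8 of 11 in MPP. Earlier is counted here from the usual base of each library. In MEF these reads began at base 1, from which the seed in capitals is counted. In LMPP, LSK and MPP they began at base 2. Which seed the molecules carried depends on why libraries differ in their usual base, which was not tested. miR-145 had no dominant start among 39 placed reads in MEF, the largest group being 15 reads that began 3 bases later than usual. The starts of miR-214* were spread as well, with 28.6% of 154 reads at the usual base and 36.4% 3 bases later.

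For each name the miRNAs of most like pattern were taken by Pearson correlation of log2(RPM + 10) over the 12 libraries, among the 276 names with 100 RPM or more somewhere. For miR-199a-5p they were miR-214 (r = 1.00), miR-199b* (1.00) and miR-409-3p (0.99). For miR-214 they were miR-199a-5p, miR-199b* and miR-409-3p. For miR-143 they were miR-409-3p, miR-206 and miR-100, each at 0.97 to 0.98. For miR-145 they were miR-125b-3p, miR-666-5p and miR-129-5p, each at 1.00. For miR-199a-3p, beside miR-199b with which it shares all reads, they were miR-152 and miR-125b-5p, both at 0.91. All of these values share the MEF library, which was the highest for each of the 5. Without it the value of miR-199a-5p with miR-214 was 0.97, and that of miR-214 with miR-409-3p stayed at 0.99. Both rest on few miR-214 reads, at most 20 in any blood library. With Spearman's correlation 1 of the 3 names was kept for each, except miR-199a-5p with 0.

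Within the 11 blood libraries the nearest were miR-199a-5p, miR-10b and miR-214 for miR-143, at 0.96, 0.94 and 0.93. For miR-199a-5p they were miR-214, miR-199b* and miR-143. For miR-214 they were miR-409-3p, miR-494 and miR-376c, each at 0.99. For miR-199a-3p they were miR-199b, miR-196b and miR-126-3p, the last 2 at 0.95 and 0.94. miR-196b is known from stem and progenitor cells and miR-126-3p from endothelium and blood stem cells, and both stood far lower in MEF, at 1063 and 19.4 RPM, than their highest blood levels of 22326 and 21752 RPM. Among blood libraries the 2 arms of miR-199a correlated at 0.86, and miR-199a-5p and miR-214 at 0.97. For miR-145 the blood values rest on 0 to 2 reads a library and were not read. Those of miR-214 rest mainly on LMPP, LSK and MPP, with 20, 12 and 11 reads. The other blood libraries held at most 1 miR-214 read each, so these high values have little support.

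A list of 25 other miRNAs associated with mesenchyme, muscle wall or fibroblasts was counted beside these 5, of which 24 were named in the tables. Against LMPP, 13 of 21 tested were called higher in MEF, beside 43.9% of all tested miRNAs, and 4 lower. The list was led in MEF by miR-22 at 516797 RPM, miR-125b-5p at 109846 RPM, miR-29b at 51878 RPM and miR-127 at 24740 RPM. miR-22 alone made up most of the MEF reads, and its highest blood level was 47064 RPM in DP. The 4 called lower, named after their values were seen, were miR-322, miR-450a-5p, miR-497 and miR-503, and over all tested miRNAs 40.4% were called lower there. The largest of these differences was that of miR-322, at 288 RPM in MEF and 7753 RPM in LMPP.

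From MPP to LMPP 13.5% of all tested miRNAs were called higher and 1.29% lower. Of the list, 4 of 14 tested names were called higher (miR-10b, miR-127, miR-22 and miR-497) and 1 lower (miR-31). These too were named after their values were seen. miR-127 stood at 29.4 RPM in MPP and 116 RPM in LMPP, a ratio of 3.95 (2.85 to 5.54), while miR-31 was 3.36-fold lower in LMPP (2.93 to 3.88). From LMPP to DN1 9 of 14 were called lower and 2 higher (miR-22 and miR-29b). Over all tested miRNAs 38% were called lower in that step and 9.49% higher. The list median of the log2 ratio was 0.01 from MPP to LMPP and -1.57 from LMPP to DN1, against 0.16 and -0.73 over all tested miRNAs.

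**Figure D5:**
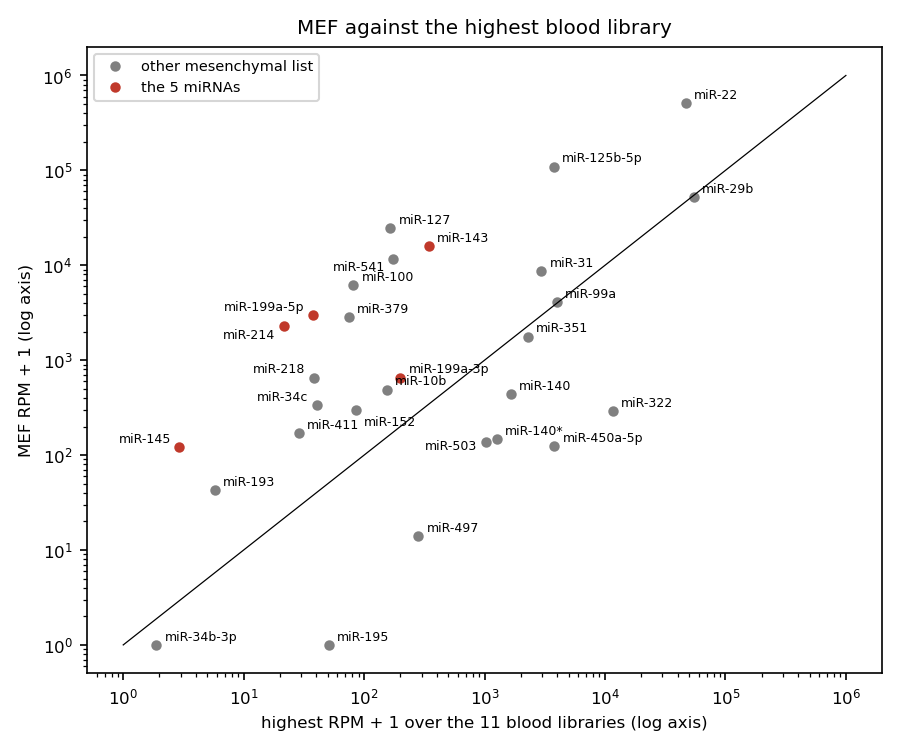
MEF RPM + 1 against the highest RPM + 1 over the 11 blood libraries on log axes, for the 5 miRNAs and for 24 other mesenchyme-associated miRNAs, with a line of equality. The 5 lie above the line, from miR-143 at 15929 against 344 RPM to miR-199a-3p at 656 against 198 RPM, while the other list lies on both sides of it, with miR-195 at 0 reads in MEF.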

How the data were processed

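Per the labels' protocols, total RNA was size-selected to 19 to 24 nt on a gel and ligated to adaptors at 5′ phosphate and 3′ hydroxyl ends. In the deposited tables every line is 1 sequence with the name assigned to it, its position and its raw read count, per the file headers. Trimming, aligner, mismatches and miRNA release: not given in the sources used here. In CD8SP the tables hold each other's kind of name, so tables were taken by the names in them, and no hairpin table of CD4SP was used here. Between 5 and 87 lines of a table were empty and left out.

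Counts were summed per name, shared sequences being split equally and counted once in the total. Ratios have exact 95% conditional binomial (Clopper-Pearson) intervals, levels exact Poisson and shares exact binomial ones. PCR reads are not independent molecules, so intervals and floors of 3 counts cover counting error only. With 1 library per population no test was possible. Read forms came from exact matches of at least 16 bases to GENCODE M21 hairpins, with at most 3 further bases. Alternatives included DESeq2 1.42.0 size factors and edgeR 4.0.16 TMM factors, in R 4.3.3, and shared, single, thinned or table-added reads. The rest used Python 3.11.15 (pandas 2.3.3, numpy 2.4.6, matplotlib 3.10.9, scipy 1.17.1).

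The named miRNAs were the 5 members and their opposite arms in every library, the 3 of most like pattern for each, and 2 lists of markers. Members, lists and rules were chosen with earlier results of these data known. Sequences are RefSeq's on GRCm38.p6, found for both arms of miR-199a and miR-214 and for the 3p arm of miR-199b. Annotation is GENCODE M21 on GRCm38.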

Additional observations from a re-analysis of the deposited data

Results flagged for a closer look

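The MEF library held 25 reads of the mir-214 hairpin that overlap neither arm by 10 bases or more. They appear because they lie outside the mature measurement and above the 3 counts that a count of 0 allows. In MEF 732 reads lay on the 3p arm and 154 on the 5p arm of that hairpin. LMPP held 20 reads of it, all on the 3p arm.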

How the results depend on the processing

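Over the alternatives run on the 13 comparisons, 130 counts of called members stayed within 1.5 times the reported one. Another 10 were smaller and 3 larger, and none of the results reversed. From LSK to MPP and in the steps from DN1 onwards, all members lay under 100 RPM and 0 were called. Unchanged counts of 0 there were largely set by that level, and nothing is read from them. All 10 smaller counts fell in the 3 steps into or out of LMPP. Summed levels lay outside the reported interval in 45 alternatives and inside it in 51, and arm shares in 10 and 12. Of the 3 names of most like pattern, 1 or 0 were kept in 7 alternatives and more in 3. From MPP to LMPP 1 member was called with shared sequences left out or with a 4-fold rule, and 0 with libraries thinned to 63386 reads. From LMPP to ProB 1 was called under median-of-ratios factors, TMM factors, shared sequences left out, thinning or a 4-fold rule, and 4 with no minimum level. From LMPP to DN1 1 was called with shared sequences left out or thinning, and 4 with no minimum level, which also called 1 from DN1 to DN2. Leaving out shared sequences removes all reads of miR-199a-3p by construction. The summed MEF level of 21959 RPM became 33567 with median-of-ratios factors, 14035 with TMM factors, 22618 with shared sequences in full, 21300 without them, 23618 with tables added and 45445 with miR-22 taken out of the total, an alternative chosen after seeing the data. The MEF share of miR-199a-3p among both arms was 30.52% with shared reads in full and 0 without them. The share of MEF member reads at the usual start was 96.165% without sequences seen once. miR-145 lost its call in MEF against all 10 blood libraries that had it under TMM factors, where it falls under 100 RPM, and without sequences seen once. Scaling shifted every ratio of a comparison by between -1.31 (MEF against DP, TMM) and 1.79 (DN4 to DP, TMM) on the log2 scale. From MPP to LMPP the shifts were -0.17 with median-of-ratios and -0.28 with TMM factors. Table-added values were not run for comparisons with CD4SP. No paired analysis was possible because each population has 1 library, and no replicate could be left out. Depth limits DN4 most, where 3 counts are 47.3 RPM.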
